A study of Mus musculus with 3 samples.

Results

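The transcriptome of sorted mouse renal macrophages was set against that of sorted hepatic Kupffer cells, gene by gene, as kidney minus liver. The deposited table gives RPKM, which scales a transcript's reads by its exon length in kilobases and by the library's total, set to 1000000. For each gene symbol 1 transcript was kept, the longest with an NM accession or, where there was none, the longest with an NR accession. A gene was compared where its RPKM was at least 1 in the kidney or the liver library, which left 11024 of 24453 genes. Both libraries came from C57BL/6 mice 8 weeks old, and the labels name no treatment and no engineered allele. By flow cytometry the cells of each tissue were taken as positive for CD11b and F4/80 and negative for Ly6G and Ly6C, and their total RNA was amplified with the SMARTer Ultra Low Input kit, which copies full-length cDNA from small amounts of RNA. A library of cardiac macrophages was prepared in the same way, and its values are printed beside a result where they help to place it, but it entered no comparison. There was 1 library per tissue and the labels do not say how many animals gave each, so no difference has a replicate check and no test was made. A gene is called higher or lower where log2(RPKM + 1) differed by at least 2 units, a 4-fold change for genes well above 1 RPKM and a larger one for weaker genes.

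Kupffer cells line the sinusoids of the liver, where they meet blood from the gut, take up aged red cells, recycle their iron, and bind circulating bacteria and modified lipoproteins. Renal macrophages form a network in the interstitium between the tubules and the capillaries, carry the fractalkine receptor CX3CR1 and present antigen on MHC class II. Both keep a common set of macrophage genes, on which signals of the tissue set a local programme, among them heme, oxysterols and Notch ligands in the liver.

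The reads counted over all listed transcripts, recovered from the step that 1 read makes in RPKM, came to 16743419 for liver, 15550830 for kidney and 14460618 for heart. Of these 10373696 in liver and 9485368 in kidney fell on the transcripts kept. A floor of 3 reads corresponds to 0.0896 RPKM in liver and 0.0965 RPKM in kidney for a gene of 2000 bases of exon. Genes with RPKM of at least 1 numbered 9201 in liver and 9923 in kidney. Intervals given below are 95% exact intervals of the reads and cover counting error of reads only. With 1 library per tissue they say nothing of the spread between animals. Amplified copies of a molecule are counted as separate reads, so the intervals may be too narrow for the molecules sampled.

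The markers of the sort were read in both libraries. Where a pair of values follows a gene with no tissue named, the tissues are in the order last given. Adgre1, which encodes F4/80, stood at 375 RPKM in liver and 394 RPKM in kidney. Itgam, which encodes CD11b, stood at 27.9 RPKM in liver and 38 RPKM in kidney, though 68.7% of its exon bases overlap another annotated gene and reads were counted without regard to strand. Ly6g, the neutrophil antigen gated out, gave 1 read in liver and 2 in kidney. Ly6c1 was at 10.1 RPKM in liver and 14.5 RPKM in kidney and Ly6c2 at 8.41 RPKM and 5.58 RPKM, so neither library lacked reads of these near-identical genes. Among 22 core macrophage genes none was higher or lower in kidney, where 13.2% of all genes compared were, and 21 lay within 1 log2 unit. The receptor for colony stimulating factor 1, Csf1r, stood at 196 RPKM in liver and 312 RPKM in kidney, and the lysosomal glycoprotein gene Cd68 at 411 RPKM and 378 RPKM. Mertk, a receptor for apoptotic cells, was the member furthest from level, at 33.1 RPKM in liver and 8.68 RPKM in kidney. Of these 22 genes 19 were read more than 2 times per base of exon. The authors' counting kept at most 3 tags per position, which can compress differences between such densely read genes. A level value of a densely read gene here or below may therefore hide a difference. The median absolute difference was 0.88 log2 units for genes below 1 read per base and 0.25 log2 units for the 158 genes at 5 or more. Those called were 1253 of 9453 and 18 of 158 in the same order. The part of the limit in these values was not tested. The 4 Y-linked genes compared, Ddx3y, Eif2s3y, Uty and Kdm5d, were read in both libraries, and Xist gave 0 reads in liver and 1 in kidney.

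Genes of other cell types differed between the libraries in both directions. In bulk RNA, fewer cells of a type and less RNA per cell cannot be told apart. The thick ascending limb, the nephron segment that reabsorbs salt without water, was represented in the kidney library: its 10 genes summed to 371 RPKM in kidney, 4.76 RPKM in liver and 0.07 RPKM in heart, with 7 at 0 reads in liver and none at 0 in kidney. Umod, the uromodulin gene, was at 215 RPKM in kidney and 0 in liver, and Slc12a1, the target of loop diuretics, at 63.4 RPKM and 0. The 18 collecting duct genes summed to 222 RPKM in kidney against 5.01 RPKM in liver, with 14 at 0 reads in liver and none in kidney, and 105 RPKM of the kidney sum was Car2, a carbonic anhydrase. The 10 distal tubule genes summed to 333 RPKM in kidney and 15.1 RPKM in liver, of which S100g, a calcium-binding protein, gave 163 RPKM and Klk1, tissue kallikrein, gave 140 RPKM in kidney. Proximal tubule genes summed to 297 RPKM in kidney and 96.3 RPKM in liver over 20 genes, and to 140.9 RPKM and 65.5 RPKM without Fxyd2. Of the 9 compared 7 were above liver, 4 by at least 2 log2 units, with a median of 1.99. By the same threshold 1 was lower, Cyp4b1, at -4.71 log2 units. Slc13a3, a dicarboxylate transporter, was at 53.0 RPKM in kidney and 0.875 RPKM in liver, and Gpx3, a secreted glutathione peroxidase, at 27.3 RPKM and 5.66 RPKM. The transporters Slc22a6, Slc22a8 and Slc5a12 were at or near 0 reads in kidney, and the receptors Lrp2 and Cubn stood at 0.451 RPKM and 0.017 RPKM there.

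In the liver library, hepatocyte genes were present. Without Trf, which was at 384 RPKM in liver and 382 RPKM in kidney, the other 29 of 30 summed to 824 RPKM in liver, 7.50 RPKM in kidney and 5.69 RPKM in heart, and 23 of the 30 were at 0 reads in kidney against 2 in liver. Fabp1, the liver fatty acid binding protein, was at 152 RPKM in liver and 5.03 RPKM in kidney, and Alb, albumin, at 64.3 RPKM and 0.220 RPKM. Liver sinusoidal endothelial genes summed to 345 RPKM in liver, 101 RPKM in kidney and 372 RPKM in heart without Fcgr2b, a gene macrophages also express, and Stab2, a defining scavenger receptor of that endothelium, was at 57.5 RPKM in liver and 0 reads in kidney. B cell genes without Cd79b summed to 282 RPKM in liver and 25.3 RPKM in kidney, with Cd79a at 34.1 RPKM and 0.049 RPKM. The 29 T and NK cell genes summed to 192 RPKM in liver and 35.7 RPKM in kidney, with Cd3g at 16.7 RPKM and 0 reads. Without Icos their liver sum was 129.6 RPKM. The part of these cell types in the differences below was not tested.

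**Figure D1:**
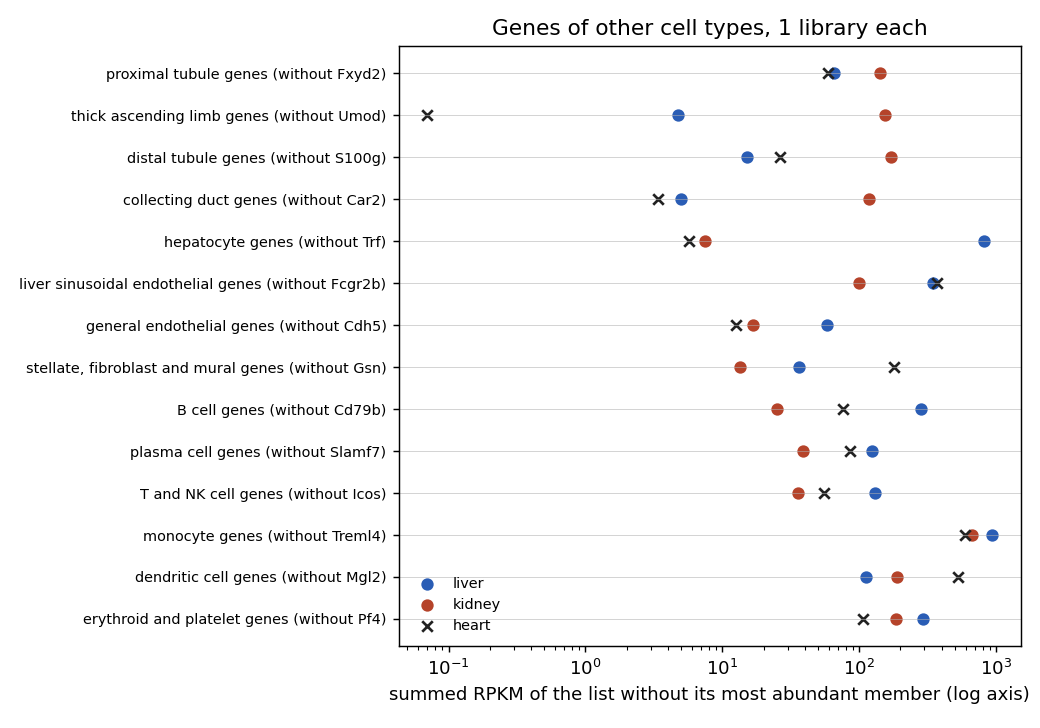
Summed RPKM of the genes of each other cell type, without the most abundant member named in brackets, on a log axis, for the liver, kidney and heart libraries (1 point per library). The 4 tubule and collecting duct lists stand highest in kidney (thick ascending limb without Umod at 155 RPKM against 4.76 RPKM in liver) and the hepatocyte list in liver (824 RPKM against 7.50 RPKM in kidney).

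Across the 11024 genes, 869 (7.88%) were higher in kidney and 586 (5.32%) lower, together 1455 genes or 13.2%. A further 6210 genes, 56.3%, lay within 1 log2 unit, and the median difference was 0.04 log2 units. Across genes, which are not independent replicates, Pearson's r of log2(RPKM + 1) was 0.762 and Spearman's rho 0.711. The extremes were larger on the liver side: 107 genes were lower in kidney by 4 log2 units or more, against 75 higher. Of the called genes 262 had 0 reads in liver and 200 had 0 reads in kidney. Counts of called list members below are to be read beside the 7.88% higher and 5.32% lower of all genes compared. At the threshold, Hhex was at 2 and Kansl1l at 1.999 on the higher side, and Bad at -2.005 and 2300009A05Rik at -1.998 on the lower side. The called genes did not share one relation to the heart library. Of the 869 higher genes, 341 had a heart value within 1 log2 unit of kidney and 308 within 1 log2 unit of liver; of the 586 lower genes, 361 had a heart value near kidney and 74 near liver.

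**Figure D2:**
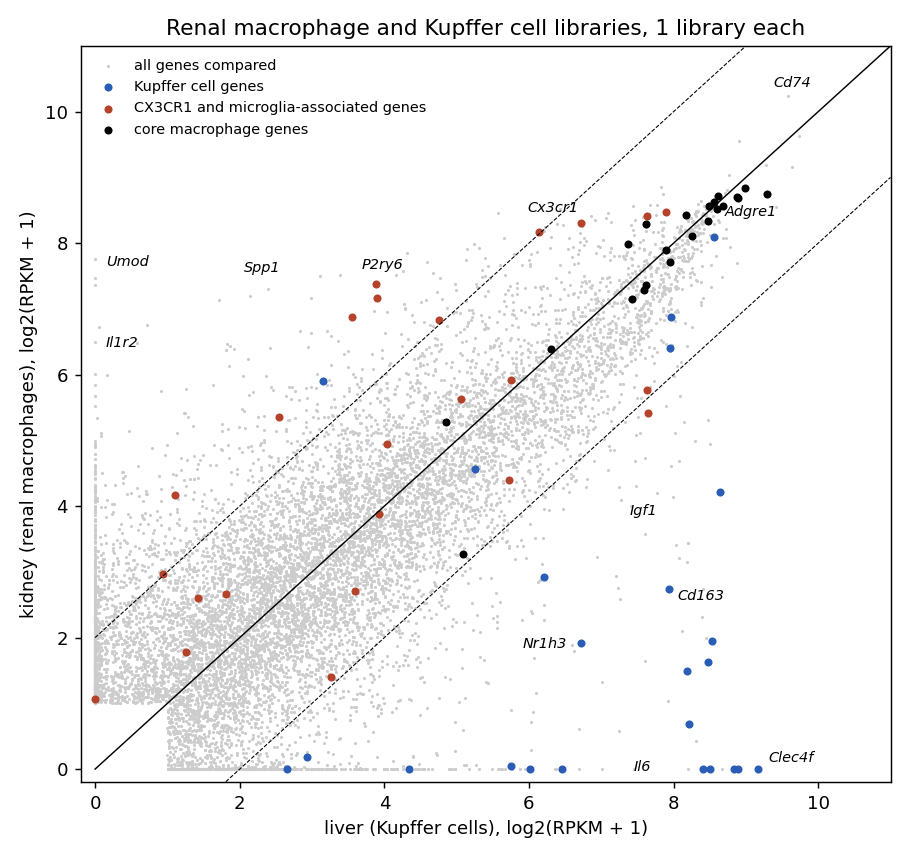
Each point is 1 of the 11024 genes, with log2(RPKM + 1) in the liver library on the x axis and in the kidney library on the y axis; dashed lines mark 2 log2 units either side of equality. Core macrophage genes lie along the line, Kupffer cell genes mostly below it and CX3CR1 and microglia-associated genes mostly above it (18 of 24 above).

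The 20 genes furthest above liver, ranked among genes reaching 10 RPKM in the higher library, held both genes of the tubule and genes known in leukocytes. The tubule and collecting duct lists hold 6 of them, Umod, S100g, Car2, Slc12a1, Klk1 and Fxyd4, and 11 had 0 reads in liver. The leukocyte genes included Il1r2, the decoy receptor for interleukin-1, at 89.2 RPKM in kidney and 0 in liver, which is at least 664-fold higher. Tnfsf9, the ligand of the costimulatory receptor 4-1BB, stood at 88.2 RPKM in kidney and 0.488 RPKM in liver. Gpr183, a receptor for oxysterols that guides leukocyte migration, was at 145 RPKM in kidney and 3.42 RPKM in liver, a 42.5-fold difference (36.5 to 49.9). Cyp4f18, which hydroxylates leukotriene B4, was at 107 RPKM in kidney and 0.637 RPKM in liver. These 4 genes were also read in heart, at 162 RPKM for Il1r2, 283 RPKM for Tnfsf9, 55.6 RPKM for Gpr183 and 27.8 RPKM for Cyp4f18, where Umod, S100g, Slc12a1 and Klk1 had 0 reads. Ptchd1, a membrane protein of the patched family, stood at 62.9 RPKM in kidney and 0.120 RPKM in liver, and Emb, embigin, at 39.6 RPKM and 0.023 RPKM. Serpinf1, which encodes pigment epithelium-derived factor, was at 56.5 RPKM in kidney and 45.0 RPKM in heart and had 0 reads in liver. Car15, at 49.9 RPKM in kidney and 0 in liver, has 65.7% of its exon bases inside another annotated gene too.

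At the other end stood 20 genes of the liver library, 10 of them on the Kupffer cell list and 1 each on the hepatocyte (Serpina1e) and sinusoidal endothelial (Clec4g) lists. Clec4f, a galactose-binding lectin of Kupffer cells, had the largest difference, with 22897 reads and 572 RPKM in liver and 0 reads in kidney and heart, at least 7089-fold higher in liver. Fcna, ficolin A, which starts the lectin pathway of complement, was at 407 RPKM in liver and 0 in kidney. Fabp7, a fatty acid binding protein, was at 364 RPKM and 0. Gm5150 stood at 293 RPKM in liver and 0.638 RPKM in kidney, Ms4a8a at 175 RPKM and 0, and Chp2, a calcineurin-like calcium sensor, at 151 RPKM and 0.498 RPKM. Of the 20, 5 had 0 reads in heart, and Folr2, the folate receptor beta, was as high in heart as in liver, at 355 RPKM in liver, 311 RPKM in heart and 2.10 RPKM in kidney, though 63.1% of its exon bases lie in another gene as well.

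The list of 26 Kupffer cell genes is where the liver library differed most. Of the 24 compared, 19 were lower in kidney and 1 higher, with a median of -5.45 log2 units. Several members had 0 reads in kidney: Vsig4, the complement receptor that captures bacteria, was at 455 RPKM in liver and 0 reads in kidney; Timd4, a receptor for phosphatidylserine, was at 340 RPKM and 0; and Cd5l, the secreted apoptosis inhibitor AIM, was at 472 RPKM and 0. Clec1b, the podoplanin receptor CLEC-2, was at 370 RPKM in liver and 2.88 RPKM in kidney. Heart held Timd4 at 148 RPKM and Vsig4 at 41.5 RPKM, but had 0 reads of Cd5l. Among the heme and iron genes of the list, Spic, Hmox1 and Slc40a1 were nearer level and not called, whereas Cd163 was lower, as given below. Those nearer level were densely read, so their differences may be compressed. Spic, the transcription factor induced by heme, stood at 249 RPKM in liver and 116 RPKM in kidney, a difference of -1.09 log2 units. Hmox1, heme oxygenase 1, stood at 378 RPKM and 271 RPKM, and Slc40a1, the iron exporter ferroportin, at 248 RPKM and 84.0 RPKM. Rab3il1, a guanine nucleotide exchange factor, went the other way, with 7.92 RPKM in liver and 59.1 RPKM in kidney.

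CX3CR1 and microglia-associated genes leaned towards kidney, with 8 of 24 higher and 1 lower, beside 7.88% and 5.32% of all genes compared. Their median was 0.89 log2 units. P2ry6, the UDP receptor that drives phagocytosis in microglia, was at 13.8 RPKM in liver and 166 RPKM in kidney, a 12.04-fold difference (10.9 to 13.3). Mef2c, a transcription factor of microglia, was at 10.7 RPKM and 117 RPKM, and Tgfbr1, the type I receptor for TGF-beta, at 13.9 RPKM and 143 RPKM. Cx3cr1 itself was at 105 RPKM in liver and 316 RPKM in kidney, 3.03-fold higher and under the threshold of 2 log2 units. It was among the 10 genes with most reads in the kidney library and densely read, so its difference may be compressed. Fcrls, an Fc receptor-like scavenger receptor, was at 4.85 RPKM in liver and 39.9 RPKM in kidney, but at 327 RPKM in heart. The list was not uniform. The purinergic receptor genes P2ry12 and P2ry13 were higher in liver, at 197 RPKM and 199 RPKM against 53.5 RPKM and 41.7 RPKM in kidney, and P2ry13 was the member called lower.

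**Figure D3:**
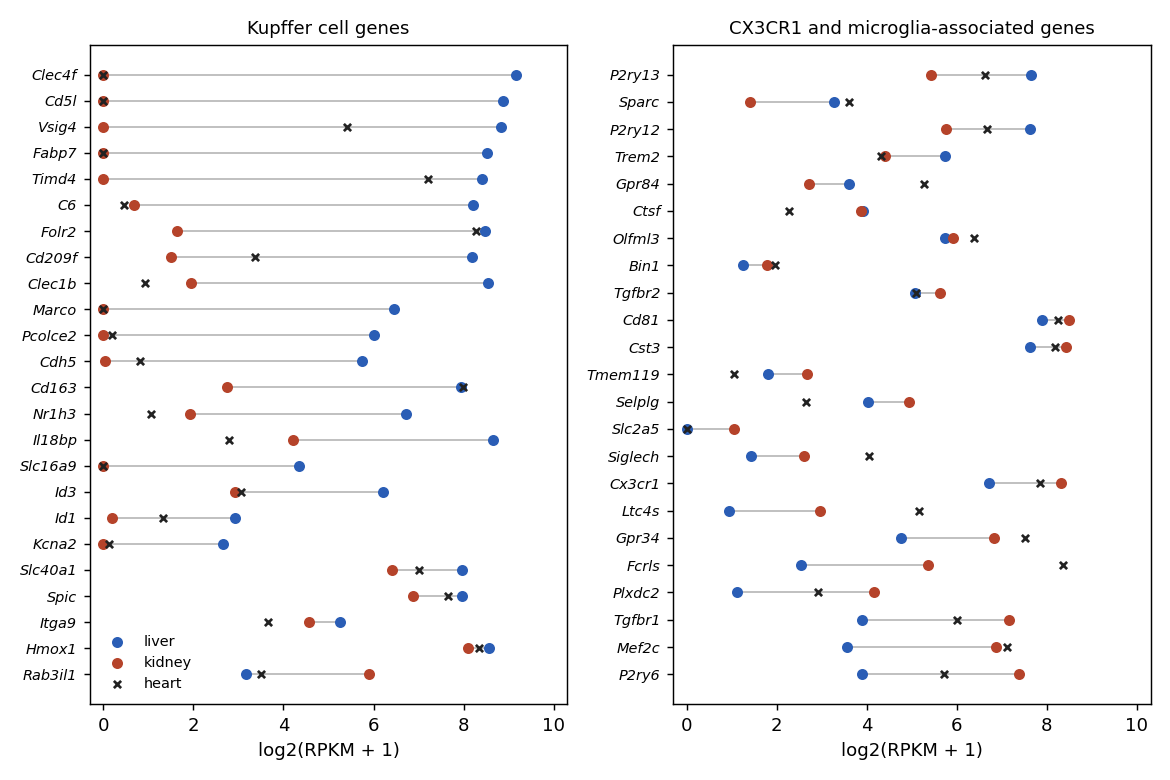
log2(RPKM + 1) of members of the Kupffer cell list (left) and of the CX3CR1 and microglia-associated list (right), in the liver, kidney and heart libraries, 1 library each, ordered by the kidney minus liver difference. Clec4f falls from 572 RPKM in liver to 0 reads in kidney and Rab3il1 stands higher in kidney, as do Cx3cr1, P2ry6, Mef2c and Tgfbr1 on the right.

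Transcription factors of macrophage identity split evenly, with 5 of 40 higher and 5 lower, beside 7.88% and 5.32% of all genes compared. The lower ones included Nr1h3, which encodes the oxysterol receptor LXR alpha, at 104 RPKM in liver and 2.78 RPKM in kidney, 37.4-fold (30.1 to 47.0). Its partner Rxra was at 22.3 RPKM and 1.49 RPKM, and Id3, an inhibitor of E proteins needed by Kupffer cells, at 73.1 RPKM and 6.58 RPKM. Heart held Nr1h3 at 1.07 RPKM and Rxra at 0.605 RPKM, near the kidney values. On the higher side was Rbpj, the DNA-binding factor of Notch signalling, at 4.48 RPKM in liver and 53.2 RPKM in kidney. Runx3 was at 1.03 RPKM and 11.5 RPKM, Runx1 at 2.41 RPKM and 14.1 RPKM, and Smad3, a mediator of TGF-beta signals, at 0 reads and 4.61 RPKM. Heart was within 1 log2 unit of kidney for these 4, from 6.09 RPKM for Smad3 to 86.8 RPKM for Rbpj. The median of the list was -0.05 log2 units, and changed to 0.07 when values were rescaled to TPM.

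Genes that LXR regulates or that carry lipoproteins were below liver in kidney in 19 of 25 cases, with a median of -0.74 log2 units. By the threshold 7 were lower and 1 higher, and 11 lay within 1 log2 unit. Apoc1, an apolipoprotein, had 317 RPKM in liver and 0.351 RPKM, 3 reads, in kidney, a ratio of 901 (308 to 4371). Scd1, which desaturates stearate, was at 62.2 RPKM and 0 reads, and Smpdl3a, a phosphodiesterase under LXR control, at 178 RPKM and 18.7 RPKM. Apoe, by contrast, was at 383 RPKM and 224 RPKM. Ch25h, which makes 25-hydroxycholesterol, was the gene higher in kidney, at 2.61 RPKM and 69.2 RPKM, 26.5-fold (20.4 to 35.0). Hepatocytes also express several of these genes, among them Scd1, Lcat and Apoc1; the hepatocyte list above stood at 824 RPKM in liver and 7.50 RPKM in kidney without Trf. Fatty acid genes outside this group differed in both directions, 7 of 31 higher and 2 lower, beside 7.88% and 5.32% of all genes compared. Their median was 0.41 log2 units, with 18 above liver, 13 below and 17 within 1 log2 unit. The largest difference was that of Fabp7, named above, at -8.51 log2 units. Acsl1, which activates long-chain fatty acids, was at 4.13 RPKM in liver and 62.1 RPKM in kidney, and Fabp3 at 0 reads and 18.0 RPKM. Pnpla2, adipose triglyceride lipase, was at 0.660 RPKM and 9.26 RPKM, and Dgat1, which makes triglyceride, at 0.034 RPKM and 4.93 RPKM. Lipid droplet and uptake genes were nearer level, with Plin2 at 269 RPKM and 244 RPKM and Cd36 at 139 RPKM and 233 RPKM. Both were densely read.

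Of 26 iron and heme genes 3 were lower and 1 higher, a share close to the 13.2% of all genes compared, with a median of -0.20 log2 units. Cd163, the receptor for hemoglobin bound to haptoglobin, was at 243 RPKM in liver and 5.68 RPKM in kidney, 42.8-fold (38.8 to 47.4), and at 252 RPKM in heart. Slc48a1, which moves heme out of the phagolysosome, was at 47.4 RPKM and 4.85 RPKM, and Tfrc, the transferrin receptor, at 7.42 RPKM and 0.815 RPKM. Storage genes were level within 1 log2 unit, with the ferritin light chain gene Ftl1 at 333 RPKM and 316 RPKM and the heavy chain gene Fth1 at 202 RPKM and 348 RPKM. Both were densely read, so a difference may be compressed. Slc11a2, the divalent metal transporter DMT1, was higher in kidney, at 1.95 RPKM and 10.9 RPKM.

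Scavenger receptors bind modified lipoproteins, bacteria and debris. Of 14 scavenger receptor genes compared, 4 were lower and none higher, beside 5.32% and 7.88% of all genes compared. The lower ones were Cd5l, Marco, Stab2 and Cd163. The median was -1.64 log2 units. It came to 0 with no filter on low values, which brings in members below 1 RPKM in both libraries. Marco, a receptor for bacteria and particles, was at 87.0 RPKM in liver and 0 reads in kidney and heart. Msr1, scavenger receptor A, was at 275 RPKM and 72.3 RPKM, and the mannose receptor gene Mrc1 at 206 RPKM and 153 RPKM. The C-type lectins differed in both directions: 6 of 28 were lower, among them Clec4f, Cd209f and Clec1b, and 5 higher. Mgl2, a lectin for galactose that dermal and other macrophages and dendritic cells carry, was at 46.5 RPKM in liver and 352 RPKM in kidney. Cd69, an early activation antigen, was at 18.1 RPKM and 189 RPKM, and Cd209a at 0 reads and 10.9 RPKM. Reads of the Cd209 genes may be shared among near-identical copies. Clec7a, the beta-glucan receptor Dectin-1, was level at 304 RPKM and 298 RPKM, but densely read.

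Complement genes were lower in kidney in 7 of 22 cases and higher in 2, beside 5.32% and 7.88% of all genes compared. Their median was -0.58 log2 units. C6, part of the pore that complement inserts into membranes, was at 296 RPKM in liver and 0.615 RPKM in kidney. Cfp, properdin, which stabilises the alternative pathway convertase, was at 315 RPKM and 31.0 RPKM. C4b was at 30.4 RPKM and 0.649 RPKM. The values of Cfb, 95.9 RPKM and 2.71 RPKM, and of C2, 87.8 RPKM and 14.5 RPKM, cannot be told apart from those of overlapping genes, with which they share 79.5% and 46.9% of their exon bases. The C1q genes lay within 1 log2 unit, with C1qb at 475 RPKM and 411 RPKM, but C1qb was densely read, so a difference may be compressed. Without genes over 2 reads per base the median of the list was -1.25 log2 units. Itgax, the CD11c subunit of complement receptor 4, was higher in kidney at 3.71 RPKM and 36.2 RPKM, as was Clu, clusterin, at 4.06 RPKM and 30.4 RPKM, a gene that tubule epithelium also expresses. Hepatocytes make many complement proteins, and their markers were higher in liver as given above.

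Genes of apoptotic cell clearance differed in both directions, with 4 of 21 lower, 2 higher and a median of 0.08 log2 units. Timd4, Stab2 and Tgm2, transglutaminase 2 (53.0 RPKM and 0.873 RPKM), were lower in kidney. Mfge8, which bridges phosphatidylserine to integrins, gave 2 reads in liver and was at 33.7 RPKM in kidney, and Anxa1, which promotes resolution of inflammation, was at 6.58 RPKM and 43.2 RPKM. Axl was level at 103 RPKM and 91.8 RPKM.

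Antigen presentation genes were at high levels in both libraries. Of 13 MHC class II genes 11 were above liver in kidney, but 1, the master regulator Ciita, passed the threshold, at 4.29 RPKM in liver and 23.6 RPKM in kidney (median 0.66 log2 units). Cd74, the invariant chain, had 764 RPKM in liver and 1210 RPKM in kidney, H2-Ab1 had 226 RPKM and 461 RPKM, and H2-Eb1 had 172 RPKM and 379 RPKM, all densely read. Among costimulatory and inhibitory ligands 4 of 17 were higher and 2 lower. Tnfsf13b, the B cell survival factor BAFF, was at 2.79 RPKM in liver and 82.8 RPKM in kidney, and Icosl, the ligand of ICOS, at 16.9 RPKM and 181 RPKM. Tnfsf13, the related factor APRIL, was at 39.2 RPKM and 3.23 RPKM, with 60% of its exon bases shared. Pdcd1lg2, PD-L2, was at 4.33 RPKM and 0.019 RPKM. Dendritic cell genes, which could bear on these values, summed to 190 RPKM in kidney and 112 RPKM in liver without Mgl2; 12 of 16 compared were above liver, 4 were higher and 2 lower, and the median was 1.09 log2 units. Of the defining genes, Flt3 had 0 reads in both and Clec9a was at 7.24 RPKM in kidney and 1.29 RPKM in liver. Their part in the result was not tested.

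Cytokine genes were the group with the widest range, 6 of 20 lower and 3 higher, beside 5.32% and 7.88% of all genes compared. Il6 had 5567 reads and 293 RPKM in liver, 297 RPKM in heart and 0 reads in kidney, at least 1723-fold higher in liver than in kidney. Il10, the anti-inflammatory cytokine, was at 193 RPKM in liver, 273 RPKM in heart and 10.9 RPKM in kidney. Il1rn, the interleukin-1 receptor antagonist, was at 70.0 RPKM, 271 RPKM and 6.37 RPKM in the same order, and Ifnb1, interferon beta, at 46.2 RPKM, 184 RPKM and 4.02 RPKM. For these 4 genes, and for Il1a at 356 RPKM, 413 RPKM and 38.5 RPKM, kidney was the lowest of the 3 libraries. Il18bp, which neutralises interleukin-18, was high in liver alone, at 399 RPKM against 17.5 RPKM in kidney and 5.91 RPKM in heart. The transcripts of Il1b and Tnf were near level, Il1b at 380 RPKM in liver and 394 RPKM in kidney, and Tnf at 125 RPKM and 155 RPKM. Both were densely read, so a difference in them may be compressed. Higher in kidney, beside Il1r2, were Ebi3, a subunit of interleukins 27 and 35, at 6.93 RPKM and 98.6 RPKM, and Osm, oncostatin M, at 0.408 RPKM and 12 RPKM. The median of the list was 0.18 log2 units, but -1.19 among genes with RPKM of at least 5 and 1.25 without genes over 2 reads per base, so no direction is given for it.

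**Figure D4:**
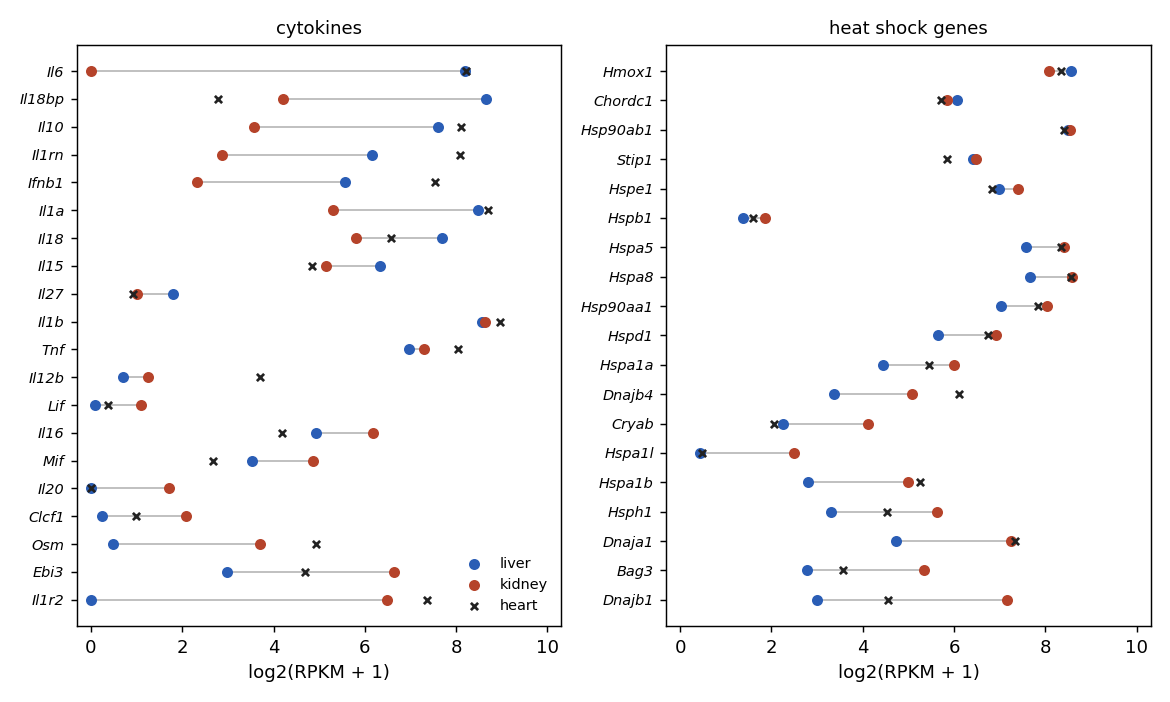
log2(RPKM + 1) of each compared cytokine gene (left) and heat shock gene (right) in the liver, kidney and heart libraries, 1 library each, ordered by the kidney minus liver difference. Il6 runs from 0 reads in kidney to 293 RPKM in liver, while Il1b and Tnf, both densely read, are near level. Of 19 heat shock genes 17 stand above liver in kidney.

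Chemokines differed at a few genes. Ccl24, eotaxin-2, was at 241 RPKM in liver and 1.05 RPKM in kidney, and Cxcl13, which draws B cells, at 348 RPKM and 3.004 RPKM, 116-fold (88.7 to 154). Ccl24 was at 154 RPKM in heart, Cxcl13 at 7.18 RPKM. Of 14 genes on the CC chemokine list 4 were lower and none higher; the other lower ones were Ccl17, Ccl22 and Xcl1. The most abundant were near level, with Ccl4 at 432 RPKM and 522 RPKM and Ccl3 at 332 RPKM and 400 RPKM, both densely read. The median of the CC list was -0.29 log2 units, and -2.06 without genes over 2 reads per base. Cxcl1, which draws neutrophils, was the 1 of 12 CXC genes higher in kidney, at 14.6 RPKM and 81.8 RPKM. Among receptors, Ccr2, which draws monocytes out of the marrow, was at 54.2 RPKM in liver and 227 RPKM in kidney, 4.18-fold (4.02 to 4.35). Ccr3, the eotaxin receptor, was at 33.2 RPKM in liver and 1 read in kidney. Monocyte genes did not move with Ccr2 as a group: of 12 compared 5 were lower and 2, Ccr2 and Spn, higher, with Plac8 at 337 RPKM in liver and 5.69 RPKM in kidney and Treml4 at 360 RPKM and 29.7 RPKM.

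Toll-like receptor and type I interferon response genes lay within 1 log2 unit more often than all genes compared, of which 56.3% did. Their called shares were near the 13.2% of all genes compared. Of 27 Toll-like receptor and adaptor genes 18 lay within 1 log2 unit, 2 were higher and 1 lower. Tlr5, the flagellin receptor, gave 2 reads in liver and was at 7.09 RPKM in kidney, the adaptor gene Myd88 was at 7.08 RPKM and 31.8 RPKM, and Tlr12 was at 15.5 RPKM and 2.29 RPKM. Of 37 type I interferon response genes 29 lay within 1 log2 unit, 3 were lower and 1 higher (median -0.36 log2 units). Irf7, which amplifies the interferon response, was at 159 RPKM in liver and 37.9 RPKM in kidney, Oasl1 at 72.0 RPKM and 10.46 RPKM, and Dhx58 at 73.9 RPKM and 16.6 RPKM. Mx1 ran against them, at 1.38 RPKM and 17.0 RPKM. Irf1 was higher in kidney at 23.2 RPKM and 209 RPKM, 9.02-fold (8.39 to 9.70), whereas the guanylate-binding protein gene Gbp2b was lower at 169 RPKM and 15.0 RPKM.

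Matrix genes included members far above and far below liver, 8 of 28 higher, 4 lower and a median of 0.83 log2 units. Spp1, osteopontin, was at 7.64 RPKM in liver, 70.8 RPKM in heart and 180 RPKM in kidney, 23.6-fold above liver (20.4 to 27.4); nephron epithelium also expresses it. Mmp12, macrophage elastase, was at 9.47 RPKM and 183 RPKM, and Mmp13, a collagenase, at 84.8 RPKM and 368 RPKM. Serpinb8, a protease inhibitor, was at 0.390 RPKM and 34.5 RPKM. Lower in kidney were Adamdec1, a disintegrin metalloprotease, at 121 RPKM and 8.32 RPKM, and Mmp27 at 30.4 RPKM and 0 reads. Growth factor genes diverged too, with 3 of 17 lower and 2 higher, beside 5.32% and 7.88% of all genes compared. Igf1, insulin-like growth factor 1, was among the 10 genes with most reads in liver, at 153 RPKM against 16.04 RPKM in kidney, 9.54-fold (9.10 to 10.01); hepatocytes also express it. Pdgfc and Hbegf were lower as well, at 13.5 RPKM and 1.60 RPKM and at 19.3 RPKM and 2.50 RPKM. Pdgfb was higher in kidney, at 1.67 RPKM and 20.6 RPKM. Egf was at 0.985 RPKM and 29.5 RPKM, and stands on the thick ascending limb list.

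Heat shock genes had the highest median of the functional lists with at least 5 genes, 1.27 log2 units, with 17 of 19 above liver, 6 higher by the threshold and none lower. Dnajb1, an HSP40 cochaperone, was at 6.95 RPKM in liver, 22.3 RPKM in heart and 142 RPKM in kidney, 20.5-fold above liver (18.4 to 22.9). Bag3, a cochaperone of HSP70, was at 5.82 RPKM and 39.4 RPKM, and Dnaja1 at 25.6 RPKM and 152 RPKM. Hsph1, HSP110, was at 8.86 RPKM and 48.4 RPKM, and Hspa1b, an inducible HSP70, at 5.96 RPKM and 30.7 RPKM; the copy Hspa1a, at 20.9 RPKM and 62.8 RPKM, is near-identical, and reads may be shared. Hspa1l, at 0.347 RPKM and 4.64 RPKM, shares 71.9% of its exon bases. The abundant members Hspa8 and Hsp90ab1 were at 202 RPKM and 382 RPKM and at 358 RPKM and 370 RPKM, densely read. Heart was between liver and kidney for Dnajb1, Bag3 and Hsph1 and above kidney for Hspa1b and Dnaja1.

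Heat shock factor 1 binds inverted repeats of the unit GAA. The motifs GAANNTTC and TTCNNGAA, on both strands, were looked for in the 250 bases before the start of each gene in RefSeq (GRCm38.p6), which held a promoter for 14 of the heat shock genes and 8284 of the genes compared. Either pairing occurred in 6 of the 14 (42.9%) and in 872 of the 8284 (10.5%); an unbroken run of 3 alternating units with the same spacing, which overlaps both pairings, occurred in 2 (14.3%) and in 34 (0.41%). The 6 were Hspa1a, Hspa1b, Hsph1, Hspb1, Hspd1 and Hspe1. The 2 genes with the longer run share a stretch read from opposite strands, and Hspa1a and Hspa1b have near-identical promoters, so these shares count the same sequences more than once. Windows of 120 bases are shown for Hspa1b (HSP70), Hsph1 (HSP110) and Hspd1 (HSP60), with the matched bases in capitals. Hspb1, with 2 pairings, is not shown, and the stretch marked in Hspd1 holds 3 overlapping pairings. The window of Hspa1b (chr17:34959279-34959398, minus strand) is the same in Hspa1a, and the window of Hspd1 (chr1:55088008-55088127, minus strand) is also the promoter of its neighbour Hspe1, read from the other strand. That of Hsph1 lies at chr5:149636316-149636435, minus strand.
Hspa1b: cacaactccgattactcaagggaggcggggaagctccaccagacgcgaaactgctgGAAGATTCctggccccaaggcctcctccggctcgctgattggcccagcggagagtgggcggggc
Hsph1: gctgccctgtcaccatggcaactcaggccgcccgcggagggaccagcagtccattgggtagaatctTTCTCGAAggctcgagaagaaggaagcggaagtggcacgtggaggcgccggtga
Hspd1: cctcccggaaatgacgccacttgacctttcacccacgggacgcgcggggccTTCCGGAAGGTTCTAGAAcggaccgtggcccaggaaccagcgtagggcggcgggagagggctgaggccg
Dnajb1, Bag3 and Dnaja1, with the largest differences of the list, have neither pairing in this window. Hspd1, which holds the longer run, was at 49.5 RPKM in liver and 121 RPKM in kidney, and Hspe1 at 126 RPKM and 168 RPKM. A match is a description of the sequence and not evidence that the factor is bound.

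**Figure D5:**
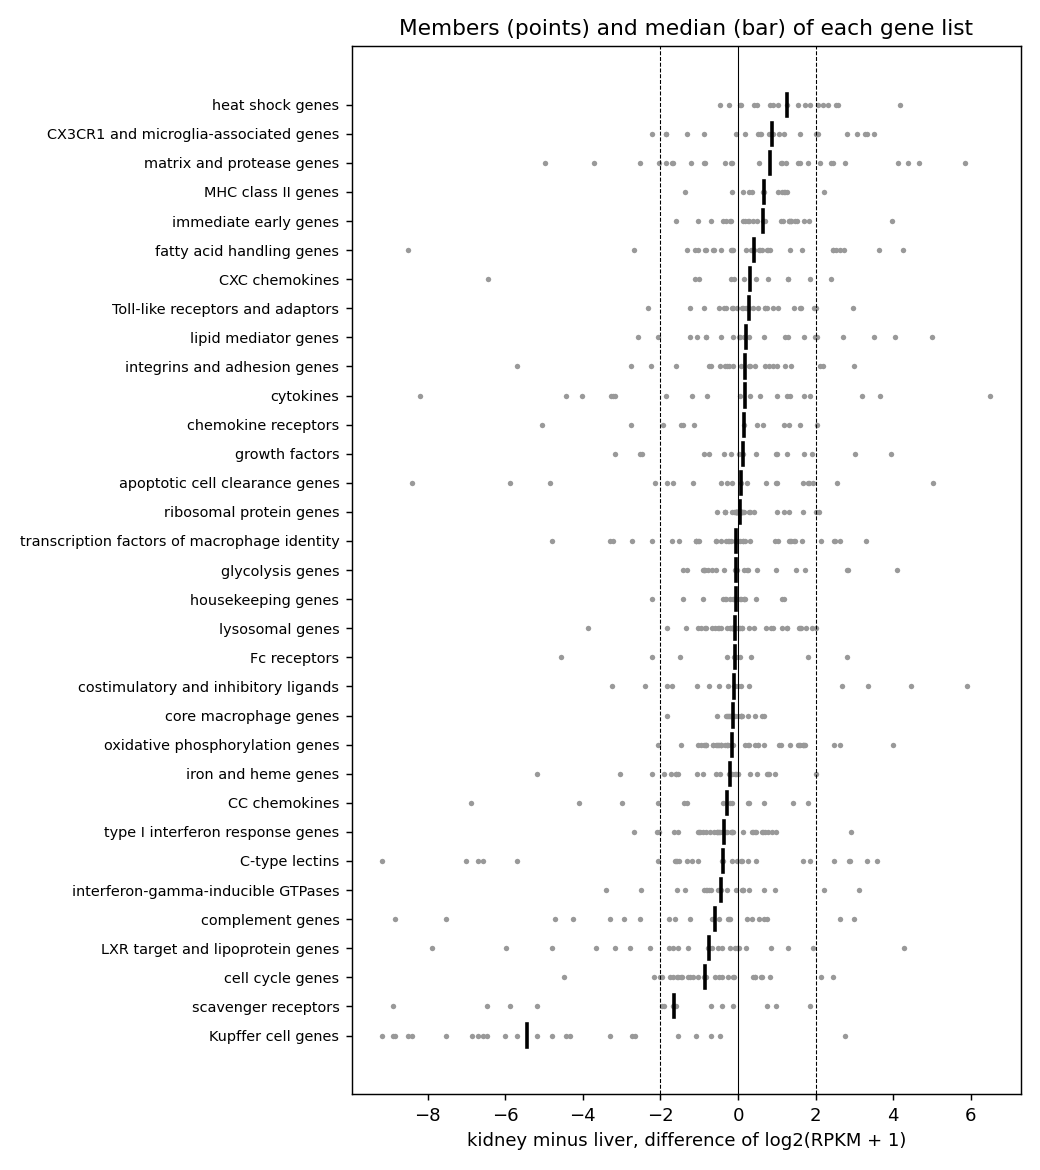
Kidney minus liver difference of log2(RPKM + 1) for each compared member (points) of the macrophage and functional lists with at least 5 genes, with the median as a bar; dashed lines mark 2 log2 units. The medians run from -5.45 for Kupffer cell genes to 1.27 for heat shock genes, and members of most lists lie on both sides of 0.

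Immediate early genes, which cells transcribe soon after a stimulus, were more often above liver in kidney, 20 of 27, with a median of 0.64 log2 units. One of them, Myc, passed the threshold, at 1.20 RPKM in liver and 33.4 RPKM in kidney, 27.9-fold (20.9 to 38.1). Fos was at 135 RPKM and 350 RPKM, Atf3 at 106 RPKM and 307 RPKM, and Zfp36 at 133 RPKM and 334 RPKM. Btg2 was near level at 290 RPKM and 329 RPKM, but densely read. Fosl2 ran the other way at 17.7 RPKM and 5.13 RPKM.

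Lipid mediator genes included members of leukotriene and prostaglandin synthesis with few or no reads in liver. Alox5, 5-lipoxygenase, which starts leukotriene synthesis, had 0 reads in liver and 15.6 RPKM in kidney, at least 246-fold higher, and Lta4h, which makes leukotriene B4, was at 2.37 RPKM and 37.1 RPKM. Ptgs2, the inducible cyclooxygenase, had 4 reads in liver and 32.5 RPKM in kidney, and Cysltr1, a receptor for cysteinyl leukotrienes, was at 18.4 RPKM and 127 RPKM. All 4 were also read in heart, at 38.9 RPKM for Lta4h, 67.1 RPKM for Alox5, 97.5 RPKM for Cysltr1 and 249 RPKM for Ptgs2. The activating protein Alox5ap was level, at 335 RPKM in liver and 344 RPKM in kidney. The constitutive cyclooxygenase Ptgs1 was at 340 RPKM and 142 RPKM, and both were densely read. In all 5 of 22 genes were higher and 2, Ptgis and Ptger2, lower, with a median of 0.22 log2 units, and 1.25 without genes over 2 reads per base.

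The lists of housekeeping functions held many densely read genes. Of 40 lysosomal genes 27 lay within 1 log2 unit (median -0.08); Acp5, tartrate-resistant acid phosphatase, was lower at 254 RPKM in liver and 16.6 RPKM in kidney. Of 43 oxidative phosphorylation genes 27 lay within 1 log2 unit (median -0.15), but 26 were read more than 2 times per base, and without such genes the median was 1.53; Uqcrc1, a subunit of complex III, was higher at 4.33 RPKM and 84.0 RPKM. Of 44 ribosomal protein genes 38 lay within 1 log2 unit (median 0.05), and Rplp1 was higher at 47.3 RPKM and 203 RPKM. Of 22 glycolysis genes 15 lay within 1 log2 unit (median -0.06), with Ldhb, a lactate dehydrogenase subunit that tubule cells express, at 18.2 RPKM and 133 RPKM, and Slc2a3, the glucose transporter GLUT3, at 1 read and 16.5 RPKM. Cell cycle genes were below liver in kidney in 22 of 30 cases, with a median of -0.85 log2 units. By the threshold 3 were lower and 2 higher, a share near the 13.2% of all genes compared. The median was -0.46 with a pseudocount of 5 and -0.59 without genes over 2 reads per base. Tk1, thymidine kinase 1, was at 150 RPKM in liver and 5.77 RPKM in kidney, Cdk1 at 26.7 RPKM and 5.19 RPKM, and Ccnb2, cyclin B2, at 0.820 RPKM and 8.87 RPKM. Rescaling to TPM moved the median of all genes compared from 0.04 to 0.16 log2 units and turned positive the medians of the Fc receptor (-0.09 to 0.04), costimulatory ligand (-0.10 to 0.02), lysosomal (-0.08 to 0.04), glycolysis (-0.06 to 0.06) and housekeeping (-0.06 to 0.06) lists, so no direction is given for these.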

How the data were processed

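RNA-seq of flow-sorted macrophages gave 3 libraries, 1 per tissue; kidney and liver were compared. Per the submitters' processing notes, CASAVA, STAR and the build mm10 were used, with versions not given in the sources used here. Per the file headers, the authors counted reads over the exons of RefSeq transcripts with HOMER on both strands, kept at most 3 tags per position, and deposited RPKM scaled to 1000000 counted reads, in columns that are named FPKM. Strands were not separated, so genes that overlap cannot be told apart, and reads of near-identical copies (Serpina1, Mup, Klk1b, Ear, Cd209, Hspa1a and Hspa1b, Ly6c1 and Ly6c2) are uncertain.

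From these values, 1 transcript was kept per symbol, genes with RPKM of at least 1 in either library were compared, and differences were taken on log2(RPKM + 1), with a pseudocount of 1. That scale understates the change of weak genes. Whole reads were recovered from the step of 1 read: all 10952 liver and 13147 kidney values checked, up to 500 reads, came out whole within 0.1. Ratios carry exact 95% counting intervals, and a library with 0 reads was set to a floor of 3 reads in it. The gene lists (51, with 1120 symbols, of which 7 were not found) and the genes compared were chosen with earlier results of these data known. Named genes were the 20 with the largest difference each way at RPKM of at least 10, up to 8 members of a list with the largest difference and up to 4 with the highest mean, the sort and sex-linked genes, and the 10 with most reads in each library. Hhex, Kansl1l, Bad and 2300009A05Rik mark the threshold; Slc22a6, Slc22a8, Slc5a12, Lrp2, Cubn, Flt3, C2, P2ry12, Rab3il1, Runx1, Slc40a1, Tnf, Hspa1a, Hspb1, Hspd1 and Hspe1 lie outside the rule and were chosen after their values were seen. Exon sharing came from a GENCODE annotation and was known for 96.4% of genes compared. The step was tested on simulated data. The values of 1 gene, which is counted in its lists, are not reported here. Python 3.11.15, numpy 2.4.6, pandas 2.3.3, scipy 1.17.1 and matplotlib 3.10.9 were used.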

Additional observations from a re-analysis of the deposited data

How the results depend on the processing

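With 1 library per tissue no library could be left out, and spread between animals cannot be given. No paired analysis was possible because each group holds 1 library. The 1455 called genes (869 higher, 586 lower) became 3074 (1943 and 1131) with a pseudocount of 0.1, 391 (203 and 188) with 5, 2823 (1897 and 926) after rescaling to TPM, whose values are larger so that the same pseudocount weighs less, and 4814 (2781 and 2033) at a threshold of 1 log2 unit. They were 1505 after median ratio scaling, 1499 with the transcript of highest mean RPKM, 1163 at RPKM of at least 5 and, in an alternative chosen after seeing the data, 1178 without genes sharing over 10% of their exon bases. The 40 ranked genes held their direction and the threshold under both other pseudocounts, both scalings and the other transcript choice. They were chosen for the largest differences in these same values, so this says little of other genes. Without genes over 2 reads per base 17 of the 40 were left to compare. Lists of at least 5 genes with a median of 1 log2 unit or more either way numbered 13, and 5 with a pseudocount of 5, 7 with no filter on low values and 20 without genes over 2 reads per base. With no filter on low values, scavenger receptors came to 0, proximal tubule genes to 0.22, dendritic cell genes to 0.20 and T and NK cell genes to -0.23. None of the 13 medians took the opposite sign. Medians nearer 0 did: cytokines (0.18) came to -1.19 at RPKM of at least 5, clearance genes (0.08) to -0.04 and growth factors (0.12) to -0.09 there, and without genes over 2 reads per base chemokine receptors (0.14) came to -1.42 and oxidative phosphorylation genes (-0.15) to 1.53. Depth limits genes near 1 RPKM: 829 genes compared had a higher RPKM of 1 to 1.5, and 995 left out had 0.5 to 1.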

Other observations

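Families of genes that share a symbol, listed after the data were seen, held further differences. Over all genes compared 7.88% were higher in kidney and 5.32% lower. Eosinophil-associated ribonucleases, secreted enzymes of myeloid cells, were above kidney in liver in all 9 members compared, with 6 lower in kidney by at least 2 log2 units. Ear2 was at 268 RPKM in liver and 8.22 RPKM in kidney, and Ear10 at 97.2 RPKM and 2.47 RPKM. Ear12 and Ear3 carry the same values, 293 RPKM and 9.87 RPKM, so reads of near-identical copies are not told apart. The major urinary proteins, which hepatocytes secrete, were lower in kidney in 17 of 19 cases, and 8 of 13 Serpina genes were lower. Cytochrome P450 genes went both ways, 6 of 23 lower and 4 higher: Cyp4b1 was at 30.6 RPKM in liver and 0.208 RPKM in kidney, Cyp2e1, a hepatocyte enzyme, at 10.5 RPKM and 0.671 RPKM, and Cyp27a1, the sterol 27-hydroxylase, at 5.27 RPKM and 25.8 RPKM.

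On the kidney side, 7 of 10 kallikrein genes were higher and none lower. Klk1b5 was at 21.8 RPKM in kidney and 0.070 RPKM in liver, beside Klk1 at 140 RPKM and 2.27 RPKM, and the Klk1b copies are near-identical. The 8 UDP-glucuronosyltransferase genes compared, of the Ugt1a locus, stood between 28.3 RPKM for Ugt1a10 and 44.4 RPKM for Ugt1a7c in kidney and between 6.42 RPKM for Ugt1a6a and 9.15 RPKM for Ugt1a6b in liver; they share their last exons. Genes named as zinc finger proteins (Zfp) were above liver in 162 of 239 cases, with 29 higher, 3 lower and a median of 0.69 log2 units against 0.04 for all genes compared. Of 26 Gpr genes 7 were higher and 2 lower, beside 7.88% and 5.32% of all genes compared. Gpr18, a receptor on lymphoid and myeloid cells, was at 6.58 RPKM in liver and 54.8 RPKM in kidney, and Gpr155 at 0.513 RPKM and 23.4 RPKM. Of 187 solute carriers 13 were higher and 16 lower, with a median of 0.02 log2 units.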
